A study of Mus musculus with 12 samples.

Results

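The genes described here make up the extracellular matrix and its receptors in 2 populations of cells sorted from the embryonic mouse cerebral cortex. Members were chosen by gene symbol alone: collagens, laminin chains, nidogens, perlecan, fibronectin, the SPARC family, thrombospondins, small leucine-rich proteoglycans, elastic fibre genes, lecticans, tenascins, integrins, glypicans, syndecans, matrix proteases and their inhibitors. The rule found 84 of the 4859 coding genes in the deposited table. By role these were 14 genes of the basement membrane, 8 fibrillar collagens, 8 other collagens, 3 small leucine-rich proteoglycans and 11 elastic fibre genes. A further 5 encode adhesive or matricellular proteins, 6 the interstitial matrix of the brain, 9 heparan sulfate proteoglycans of the cell surface, 7 integrin subunits and 12 proteases or inhibitors. The last member, Itgb3bp, has a symbol that begins like an integrin's but encodes a centromere protein.

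Cells came from the cortex of embryos of the transgenic line Tg(Ebf2-EGFP)FB58Gsat, in which regulatory sequences of Ebf2 drive EGFP, and every group carried the transgene. The groups were Ebf2-EGFP+ and Ebf2-EGFP- cells on E11.5, E13.5 or E15.5, with 2 libraries in each of the 6 groups. Each library pooled cells of several embryos, so a library is not 1 animal. The study describes the Ebf2-EGFP+ cells as mostly preplate neurons at E11.5, both subplate and Cajal-Retzius (CR), and as mostly CR neurons at E15.5. It describes the Ebf2-EGFP- cells as mostly, if not wholly, progenitors at E11.5, joined by cortical plate neurons at the later stages.

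The matrix of the developing cortex has layers with different makers. A basement membrane of laminin, collagen IV, nidogen and perlecan lies under the meninges at the pial surface, and the end feet of radial glia hold on to it through integrins. Fibrillar collagens and small leucine-rich proteoglycans are typical of connective tissue such as the meninges. Within the cortical wall the space between cells holds mainly chondroitin sulfate proteoglycans of the lectican family, hyaluronan and tenascins. CR neurons lie in the marginal zone, just beneath the pial basement membrane.

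Levels are FPKM (fragments per kilobase of transcript, scaled to the mapped fragments of the library), which are scaled for length and can be set side by side between genes. Differences are between group means of log2(FPKM + 1), a scale that understates changes of weakly expressed genes, and a gene was called when its limma p-value, adjusted over the 4859 genes, was under 0.05. The deposited table lists only genes that the authors reported as differing, so a call at some stage was built into the choice, and the counts below describe that list and not all matrix genes. Between the 2 libraries of a group the members correlated at 0.979 to 0.993 on the log scale (Pearson's r across 84 genes, which are not independent replicates). The members took 0.539% to 1.1% of the FPKM summed over the listed genes. Summed markers of CR neurons (9 genes, Reln and Trp73 among them) stood at 209 to 1250 FPKM in the Ebf2-EGFP+ libraries and at 13.2 to 26.6 in the Ebf2-EGFP- libraries. Summed radial glia markers (9 genes) ran the other way, from 1391 to 1686 FPKM in Ebf2-EGFP- cells and from 418 to 442 in Ebf2-EGFP+ libraries at E11.5, and from 470 to 838 against 90.2 to 154 at E15.5. The first and second Ebf2-EGFP+ libraries at E15.5 differed in summed CR markers, at 594 and 1250 FPKM. Their cortical plate markers (8 genes) summed to 978 and 661 FPKM, against 619 to 720 in the Ebf2-EGFP- libraries of that stage. The part of this in the calls below was not tested.

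Matrix genes were mostly lower in the Ebf2-EGFP+ cells, most of all at E11.5. At E11.5, 67 of 84 members (79.8%) were lower and 7 (8.33%) higher, where 44.9% of all listed genes were lower and 36.8% higher. At E13.5 there were 52 lower and 12 higher, against 43.5% and 32.1% of all listed genes. At E15.5 the calls fell to 36 lower and 14 higher, against 31.6% and 25.8%, so 42.9% of members were lower and 16.7% higher. The median difference over the members was -1.24, -0.68 and -0.40 at the 3 stages, and over all listed genes -0.19, -0.19 and -0.11. In bulk libraries, fewer cells of a type and less RNA per cell cannot be told apart. Scaling the libraries by their median of ratios raised the median difference of all genes by 0.19, 0.19 and 0.13, and under it 66, 46 and 36 members were lower and 8, 14 and 21 higher. The factors came from the listed genes alone, which were chosen as differing, so this scaling recentres that list and not all genes.

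**Figure D1:**
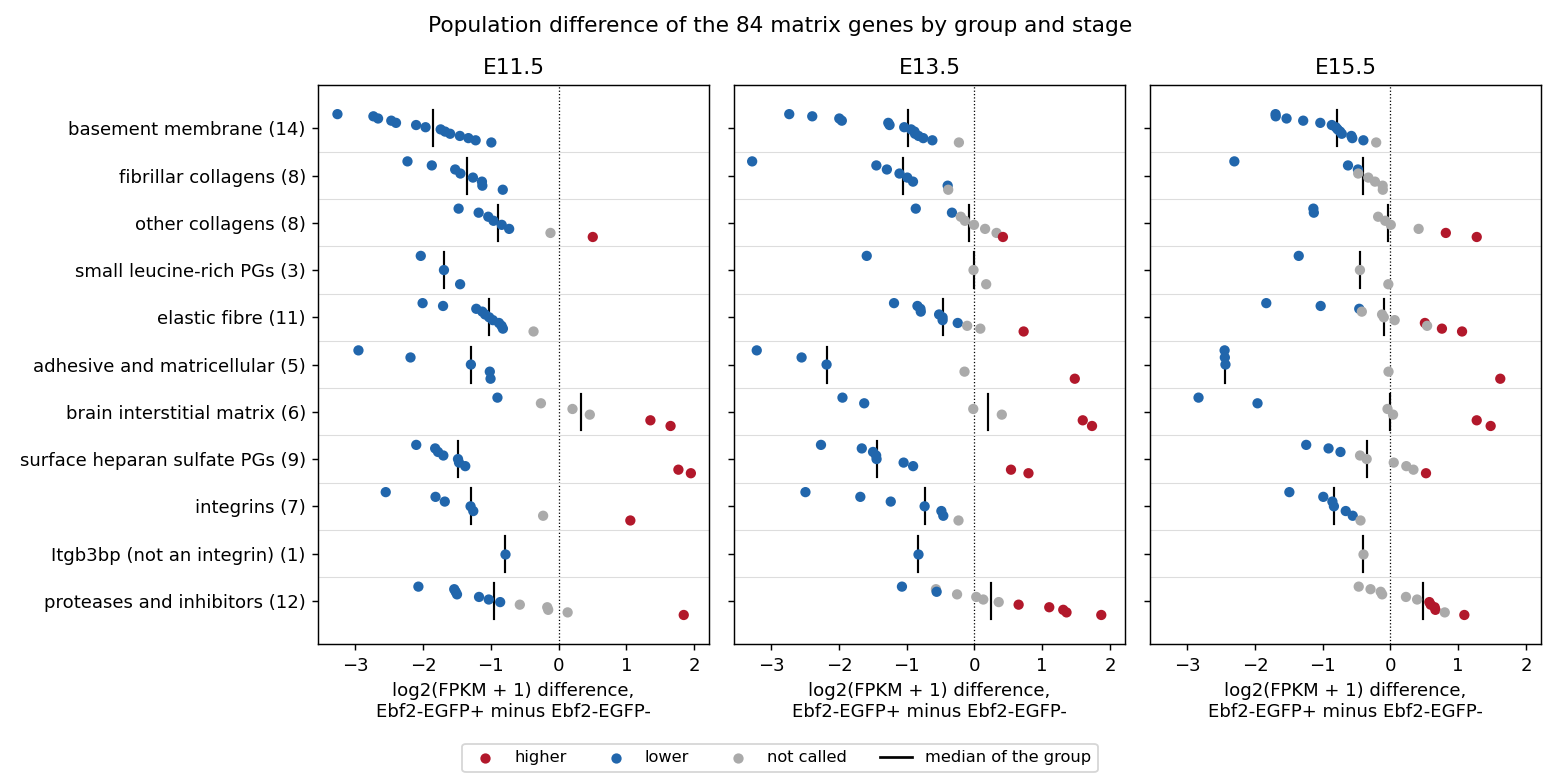
Each point is 1 of the 84 members, placed by its difference between Ebf2-EGFP+ and Ebf2-EGFP- cells in log2(FPKM + 1) and coloured by its limma call, in rows by role, with black lines at the median of each row. All 14 basement membrane genes lie left of 0 at every stage, whereas the 12 proteases and inhibitors move from mostly left at E11.5 to mostly right at E15.5.

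Following members over the stages, 29 were lower in Ebf2-EGFP+ libraries at all 3 stages and 2, Vcan and Mmp24, were higher at all 3. Another 28 were lower at E11.5 and not called at E15.5. In addition 9 members went from lower at E11.5 to higher at E15.5 and 1, Itga4, from higher to lower. The shares of all listed genes with these patterns were not computed, so the counts cannot set the members apart. Adamts10, chosen after its values were seen, was called at no stage. At E11.5 it measured 3.6 and 9.77 FPKM in Ebf2-EGFP- and 2.32 and 5.77 in Ebf2-EGFP+ cells, so the second library was the higher in each population. With the replicate number as a block it was lower at all 3 stages (limma adjusted p = 0.00275, 0.00322 and 0.0125).

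The basement membrane was the most uniform group. All 14 of its genes were lower in Ebf2-EGFP+ libraries at E11.5, 13 at E13.5, then 13 at E15.5, with none higher, and the median difference was -1.85, -0.99 and -0.79. Summed over the 14 genes, the 2 Ebf2-EGFP- libraries held 175 and 143 FPKM at E11.5 and the 2 Ebf2-EGFP+ libraries 21.1 and 24.6. At E15.5 the sums were 36.2 and 32.1 against 9.75 and 9.96, so the populations did not overlap while both fell.

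Collagen IV forms the network of the basement membrane, and its chains alpha 1 and alpha 2 come from Col4a1 and Col4a2. In mm10 these genes lie head to head on chromosome 8, with start sites 21 bases apart, and their promoter windows (250 bases before to 50 after the start, from RefSeq on GRCm38.p6) share 78 bases. Both windows are shown because, among the 54 members with a window, this is the head-to-head pair whose windows overlap. Each is written 5′ to 3′ on its own gene's strand, with the shared bases in capitals. Col4a5 and Col4a6 also lie head to head, on chromosome X, with start sites 1343 bases apart and windows that do not overlap. The window of Col4a1 is chr8:11312777-11313076 on the minus strand and that of Col4a2 is chr8:11312555-11312854 on the plus strand.
Col4a1: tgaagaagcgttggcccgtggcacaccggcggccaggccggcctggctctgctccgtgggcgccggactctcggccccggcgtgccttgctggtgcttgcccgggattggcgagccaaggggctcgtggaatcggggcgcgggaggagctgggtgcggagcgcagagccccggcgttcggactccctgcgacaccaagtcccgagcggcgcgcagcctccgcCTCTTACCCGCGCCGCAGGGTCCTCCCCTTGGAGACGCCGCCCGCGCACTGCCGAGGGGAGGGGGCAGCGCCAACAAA
Col4a2: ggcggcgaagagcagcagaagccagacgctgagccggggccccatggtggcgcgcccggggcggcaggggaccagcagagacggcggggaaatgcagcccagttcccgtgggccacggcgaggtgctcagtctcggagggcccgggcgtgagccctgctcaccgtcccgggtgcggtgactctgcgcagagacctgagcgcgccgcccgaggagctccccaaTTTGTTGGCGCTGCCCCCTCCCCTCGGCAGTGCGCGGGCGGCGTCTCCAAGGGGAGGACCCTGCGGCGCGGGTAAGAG
The search covered 2 motifs on both strands, and matches of one and the other can overlap by at most 2 bases. CCAAT, a box bound by NF-Y, began at position -145 from the start of Col4a1 and at position -32 from that of Col4a2. GGGCGG, the GC box, matched 1 time in the Col4a1 window and 3 times in that of Col4a2. The Col4a1 match, at position 9, and the Col4a2 match at position 7 are the same shared bases, read on opposite strands. Over the 59 windows of the 54 members that the RefSeq table holds, 30.5% held CCAAT and 78% GGGCGG, where the shares of all 32851 windows were 37.4% and 35.7%.

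Col4a1 measured 30.5 and 22.9 FPKM in the Ebf2-EGFP- libraries and 3 and 3.26 in the Ebf2-EGFP+ libraries at E11.5, a difference of -2.73 (standard error 0.26, limma adjusted p = 3.16e-06). By E15.5 it was down to 4.77 and 6.08 against 0.762 and 1.21, still a difference of -1.70 (standard error 0.26, limma adjusted p = 2.49e-04). Col4a2 followed with 22.8 and 16.5 against 2.63 and 2.75 at E11.5, then 3.05 and 3.76 against 1.46 and 1.57 at E15.5, where its difference was smaller, -0.81 (standard error 0.21, limma adjusted p = 0.00685). The pair thus went together over a wide range of levels, but not in a fixed proportion. Col4a1 stood at 1.34 to 1.95 times Col4a2 in the 6 Ebf2-EGFP- libraries and at 0.522 to 1.27 times in the 6 Ebf2-EGFP+ libraries.

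Col18a1, which encodes the proteoglycan collagen XVIII, had the largest difference of all members at E11.5. It measured 33.7 and 29.1 FPKM in Ebf2-EGFP- and 2.17 and 2.58 in Ebf2-EGFP+ cells, a difference of -3.26 (standard error 0.30, limma adjusted p = 2.34e-06). Lamb2, the laminin beta 2 chain, gave 15.2 and 14.6 against 1.29 and 1.76 FPKM at E11.5 and 10.6 and 6.71 against 0.513 and 0.333 at E13.5, with differences of -2.66 and -2.73 (limma adjusted p = 1.94e-06 and 5.17e-06). Lamc1, the gamma 1 chain found in most laminins, kept the highest basement membrane level in Ebf2-EGFP+ cells, 4.28 and 5.01 FPKM at E11.5, then 3.13 and 3 at E15.5, still below the 7.62 and 7.03 of Ebf2-EGFP- cells (difference -1.03 (standard error 0.16, limma adjusted p = 2.03e-04)). The exception at E15.5 was Lama1, the laminin alpha 1 chain of early basement membranes. It fell from 10.7 and 8.38 to 1.43 and 1.13 FPKM in Ebf2-EGFP- cells, and lay between 0.749 and 1.08 in all 6 Ebf2-EGFP+ libraries, so its difference shrank from -2.40 to -0.21 (standard error 0.16, limma adjusted p = 0.286).

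Endothelial and mural cells of blood vessels make basement membranes too, and their markers were lower alongside this group at E11.5. Later the mural markers stayed lower, and the endothelial ones were split by E15.5. The 5 endothelial markers in the table (Cdh5, Kdr, Cldn5, Egfl7 and Ramp2) summed to 10.7 to 14.0 FPKM in Ebf2-EGFP- and 1.49 to 2.1 in Ebf2-EGFP+ libraries at E11.5, with 5 of 5 lower. At E13.5 the sums were 4.47 to 6.2 and 3.14 to 4.89, with 1 of 5 lower. By E15.5 their sums were 6.1 to 6.27 in Ebf2-EGFP- and 7 to 9.75 in Ebf2-EGFP+ cells, with 1 lower and 1 higher. Ramp2 then read 4.06 and 7.27 FPKM in Ebf2-EGFP+ and 2.04 and 1.9 in Ebf2-EGFP- libraries. Cdh5, Kdr and Cldn5 were lower in both Ebf2-EGFP+ libraries, Cldn5 at 0.268 and 0.36 against 1.37 and 1.73 FPKM. The 5 mural markers (Pdgfrb, Rgs5, Abcc9, Notch3 and Vtn) summed to 37.3 to 45.4 against 3.25 to 4.39 at E11.5 and to 11 to 13.6 against 2.38 to 5.24 at E15.5, with 5, 5 and 4 of 5 lower at the 3 stages. Their part in the difference was not tested.

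Integrins are the receptors that bind these proteins, each an alpha and a beta subunit. Of the 7 subunits in the table, 5 were lower in Ebf2-EGFP+ libraries at E11.5, 6 at E13.5, then 6 at E15.5, and Itga4 was the 1 that was higher, at E11.5. Itgb1, the beta subunit shared by most matrix integrins, was the most abundant subunit and at E11.5 the one with the smallest difference. It measured 51.1 and 42.8 FPKM in Ebf2-EGFP- and 40.7 and 39 in Ebf2-EGFP+ libraries at E11.5, a difference of -0.23 (standard error 0.14, limma adjusted p = 0.159), then 35.7 and 32 against 19.9 and 22.2 at E15.5, a difference of -0.66 (standard error 0.14, limma adjusted p = 0.00227). With the libraries scaled by their median of ratios the E11.5 difference was 0.03.

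Itgb8, which pairs with the alpha V subunit and is a receptor of radial glia, differed most. It measured 12.4 and 9.94 FPKM in Ebf2-EGFP- and 1.05 and 1.09 in Ebf2-EGFP+ libraries at E11.5, and the libraries did not overlap at any stage. The differences were -2.55, -2.49 and -1.49 (limma adjusted p = 1.00e-06, 3.71e-06 and 1.03e-04). Itga6, the alpha 6 subunit of laminin receptors, was lower at E11.5 with 16 and 15.4 against 5.93 and 6 FPKM, a difference of -1.26 (standard error 0.21, limma adjusted p = 1.51e-04). It was not called at E13.5, with 10.1 and 8.81 against 8.05 and 7.67 FPKM. At E15.5 the difference was -0.44 (standard error 0.21, limma adjusted p = 0.0876), which was called with the replicate number as a block (limma adjusted p = 0.00996).

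Itga4, the alpha 4 subunit that binds fibronectin and VCAM1, changed sides. At E11.5 it stood at 3.01 and 3.27 FPKM in Ebf2-EGFP+ and 1.02 and 0.947 in Ebf2-EGFP- cells, a difference of 1.06 (standard error 0.13, limma adjusted p = 1.72e-05). By E15.5 the Ebf2-EGFP+ libraries were down to 0.265 and 0.183 FPKM against 0.84 and 0.759, a difference of -0.56 (standard error 0.13, limma adjusted p = 0.00364). Its level within Ebf2-EGFP- cells moved by -0.14 (standard error 0.13, limma adjusted p = 0.32) from E11.5 to E15.5, which was not called. The call at E13.5, a difference of -0.46, was lost without the second Ebf2-EGFP+ library of that stage (difference -0.31, limma adjusted p = 0.0928). Itgb3bp, not an integrin, was lower at E11.5 with 5.39 and 2.85 against 2.82 and 1.17 FPKM. The libraries barely parted, at 2.854 against 2.822 FPKM where they came closest, and its call at E11.5 was lost without the first Ebf2-EGFP- or the second Ebf2-EGFP+ library (differences -0.42 and -0.38).

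The proteins that tie integrins to the cytoskeleton went the same way as the subunits. Of a list of 19 such adaptors 10 were in the table, and 8 of the 10 were lower in Ebf2-EGFP+ libraries at each stage. Tns3, a tensin, measured 5.57 and 5.28 FPKM in Ebf2-EGFP- and 0.51 and 0.272 in Ebf2-EGFP+ libraries at E13.5, a difference of -2.21 (standard error 0.20, limma adjusted p = 6.19e-06). Parva, which encodes alpha-parvin, measured 14.6 and 11.1 against 2.4 and 2.16, a difference of -2.07 (standard error 0.21, limma adjusted p = 1.20e-05).

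Fibrillar collagens were abundant in the Ebf2-EGFP- cells at E11.5 and much lower later in both populations. The 8 genes summed to 196 and 167 FPKM in Ebf2-EGFP- and 56.3 and 65.5 in Ebf2-EGFP+ libraries at E11.5, and to 21.6 and 14.3 against 6.86 and 8.57 at E15.5. All 8 were lower in Ebf2-EGFP+ libraries at E11.5, 7 at E13.5, then 3 at E15.5. Col3a1, the type III collagen of soft connective tissue, measured 50.7 and 42.8 FPKM in Ebf2-EGFP- and 14.7 and 18.3 in Ebf2-EGFP+ libraries at E11.5, a difference of -1.45 (standard error 0.19, limma adjusted p = 2.87e-05). By E15.5 every library was under 1 FPKM, with 0.416 and 0.575 against 0.0483 and 0.0947. The call there, at a limma adjusted p of 0.0493, was lost without any 1 of the 4 libraries of that stage (limma adjusted p from 0.079 to 0.168).

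Type I collagen, of chains from Col1a1 and Col1a2, is the main collagen of skin and bone. Col1a2 measured 34 and 25.5 FPKM in Ebf2-EGFP- and 12.9 and 12.9 in Ebf2-EGFP+ libraries at E11.5, a difference of -1.13 (standard error 0.24, limma adjusted p = 8.32e-04), and was under 1 FPKM in every library from E13.5 on. The E11.5 call was lost with a pseudocount of 0.1 (difference -1.18, limma adjusted p = 0.104). Col1a1 had 29.1 and 24.7 against 10.9 and 12.7 FPKM at E11.5. At E15.5 its Ebf2-EGFP+ libraries read 0.512 and 2 and lay on both sides of the 1.38 and 1.23 in Ebf2-EGFP- cells, a difference of -0.11 (standard error 0.27, limma adjusted p = 0.735). Without the second Ebf2-EGFP+ library the difference was -0.61 (limma adjusted p = 0.0362), and without the first it was 0.38.

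Col2a1, the cartilage collagen that neuroepithelium also expresses, kept the size of its difference to E15.5 on the log2(FPKM + 1) scale. It measured 37.7 and 36.6 FPKM in Ebf2-EGFP- and 6.38 and 7.97 in Ebf2-EGFP+ libraries at E11.5, 17.3 and 14.8 against 0.94 and 0.574 at E13.5, then 9.51 and 4.45 against 0.69 and 0.391 at E15.5. The populations did not overlap at any stage, and the differences were -2.23, -3.28 and -2.30 (limma adjusted p = 1.46e-05, 3.71e-06 and 3.55e-05). From E11.5 to E15.5 its difference changed by -0.07 (standard error 0.38, limma adjusted p = 0.871). Both Ebf2-EGFP+ libraries were under 1 FPKM at the later stage, where this scale understates a difference.

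The small leucine-rich proteoglycans bind collagen fibrils. Lum (lumican) measured 10.76 and 11.46 FPKM in Ebf2-EGFP- and 2.96 and 2.55 in Ebf2-EGFP+ libraries at E11.5, a difference of -1.69 (standard error 0.13, limma adjusted p = 8.38e-07), and at most 0.283 in any later library. Bgn (biglycan) was lower at all 3 stages, with 12 and 11.8 against 2.08 and 2.22 FPKM at E11.5, then 2.87 and 2.6 against 0.163 and 0.834 at E15.5, a difference there of -1.35 (standard error 0.20, limma adjusted p = 2.01e-04). Dcn (decorin) had 1.78 and 3.14 against 0.152 and 0.332 FPKM at E11.5, a difference of -1.45 (standard error 0.22, limma adjusted p = 9.10e-05). It was not called later, but at E15.5 the difference of -0.45 was called with the replicate number as a block (limma adjusted p = 0.026), and with a pseudocount of 0.1 (limma adjusted p = 0.0452).

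Among the 8 other collagens, 6 were lower and 1 higher in Ebf2-EGFP+ libraries at E11.5, 2 lower and 1 higher at E13.5, and 2 lower and 2 higher at E15.5. Col26a1 fell from 12.4 and 9.21 to 1.43 and 1.07 FPKM in Ebf2-EGFP- cells and from 4.6 and 4.79 to 2.24 and 1.77 in Ebf2-EGFP+ cells, so that the difference went from -1.04 (standard error 0.18, limma adjusted p = 2.05e-04) to 0.42 (standard error 0.18, limma adjusted p = 0.0637). The latter was called with the replicate number as a block (limma adjusted p = 0.0273) and under median-of-ratios scaling (limma adjusted p = 0.00977). Col9a2, a fibril-associated collagen, was the 1 higher at E11.5, with 3.45 and 2.85 FPKM against 1.97 and 1.85 (difference 0.51 (standard error 0.16, limma adjusted p = 0.0114)). That call was lost without the second Ebf2-EGFP- or the first Ebf2-EGFP+ library (differences 0.48 and 0.40), and its E13.5 call, a difference of 0.42, without either Ebf2-EGFP- library or the first Ebf2-EGFP+ library (differences of 0.43, 0.41 and 0.34).

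The 2 higher at E15.5 were both lower at E11.5 and rested on uneven libraries. Col23a1, a transmembrane collagen, went from 0.578 and 0.751 to 0.871 and 2.95 FPKM in Ebf2-EGFP+ cells and from 1.99 and 1.95 to 0.151 and 0.0966 in Ebf2-EGFP- cells, a difference at E15.5 of 1.27 (standard error 0.25, limma adjusted p = 0.00121). Without the second Ebf2-EGFP+ library it was 0.74 (limma adjusted p = 0.00139). Its E11.5 call, a difference of -0.84, was lost without the first Ebf2-EGFP+ library (-0.76). Col6a2, a chain of the beaded-filament collagen VI, read 0.561 and 1.66 FPKM in Ebf2-EGFP+ and 0.234 and 0.0822 in Ebf2-EGFP- libraries at E15.5, a difference of 0.82 (standard error 0.22, limma adjusted p = 0.00711). Without the second Ebf2-EGFP+ library it was 0.43 (limma adjusted p = 0.0673), and its E11.5 call, a difference of -0.73, was lost without the first Ebf2-EGFP+ library of that stage (-0.60) and with a pseudocount of 0.1 (limma adjusted p = 0.0919).

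Most markers of meninges and fibroblasts were lower in Ebf2-EGFP+ cells at E11.5, like the collagens of connective tissue, but their sum was not. The 9 in the table summed to 267 to 310 FPKM in Ebf2-EGFP+ and 174 to 177 in Ebf2-EGFP- libraries at E11.5. Crabp2 made up most of these sums and was then higher in Ebf2-EGFP+ cells (300 and 256 FPKM, against 146 and 147). The other 8 (Foxc1, Foxd1, Twist2, Pdgfra, Aldh1a2, Tbx18, Prrx1 and Prrx2) summed to 27.4 to 30.6 FPKM in Ebf2-EGFP- and 10.1 to 11.7 in Ebf2-EGFP+ libraries at E11.5. By E15.5 the sums were 1.91 to 2.96 and 0.343 to 0.388, and Twist2 was listed at 0 in all libraries from E13.5 on. By limma's adjusted p 7 of the whole list were lower and 2, Crabp2 and Twist2, higher at E11.5. At each later stage 2 were lower and none higher. Their part in the collagen differences was not tested.

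Of 26 genes for collagen synthesis, folding and processing 8 were in the table, and 8 of 8 were lower in Ebf2-EGFP+ libraries at E11.5 and 7 of 8 at both later stages, when 1 was higher. Serpinh1, the collagen chaperone HSP47, measured 157 and 151 FPKM in Ebf2-EGFP- and 51.1 and 53 in Ebf2-EGFP+ libraries at E11.5. Its largest difference was at E13.5, 71.1 and 50.9 against 14.9 and 11, at -2.14 (standard error 0.21, limma adjusted p = 9.93e-06). Leprel1, a collagen prolyl 3-hydroxylase, measured 4.24 and 3.4 against 0.197 and 0.188 at E11.5, a difference of -2.01 (standard error 0.13, limma adjusted p = 2.21e-07).

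**Figure D2:**
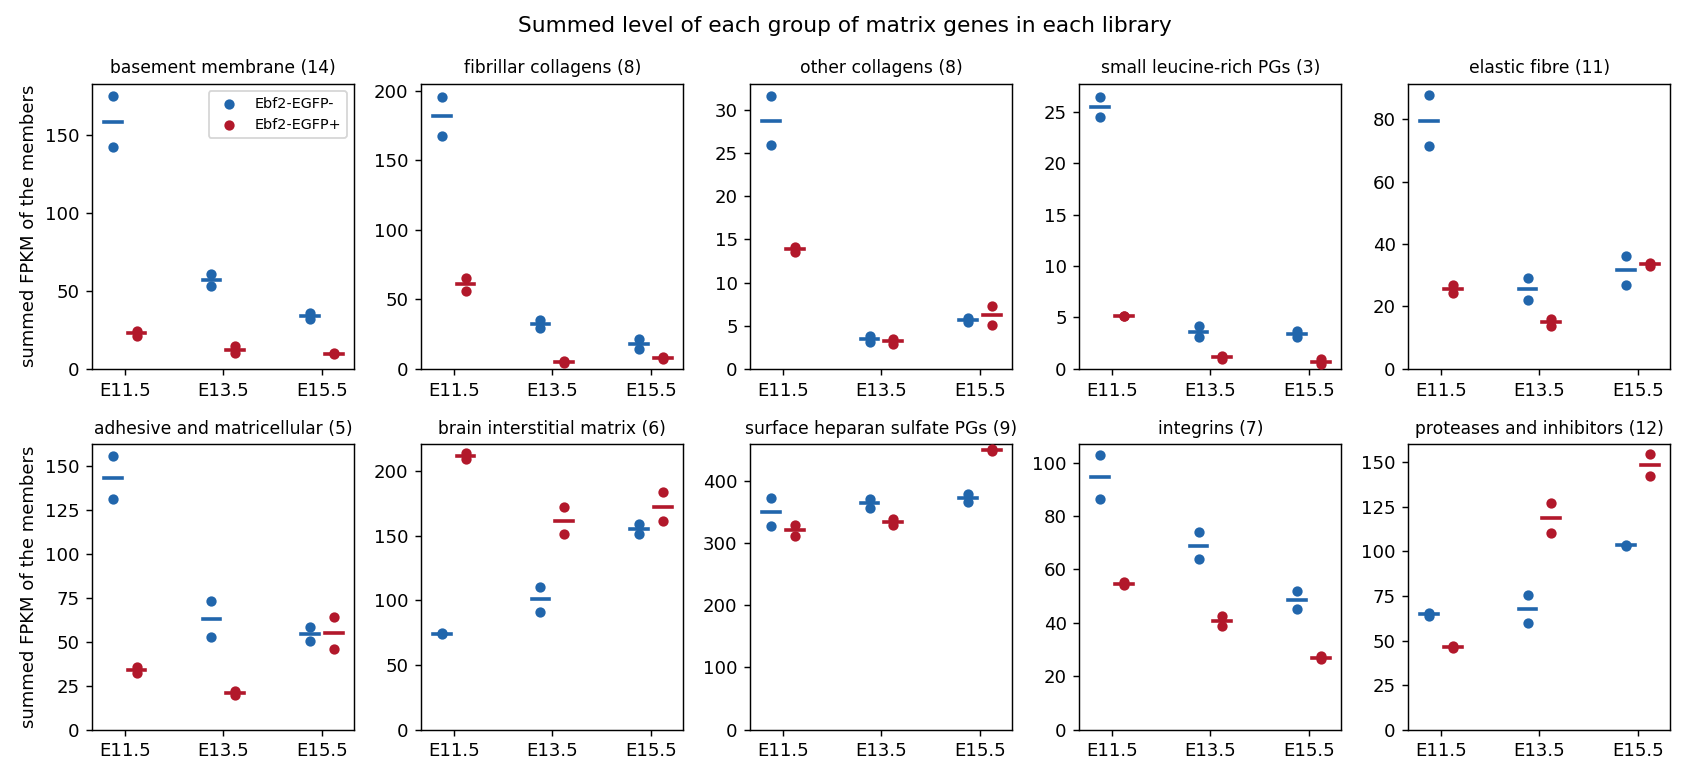
Each point is the FPKM of 1 library summed over the members of a role, on E11.5, E13.5 or E15.5, in Ebf2-EGFP- (blue) and Ebf2-EGFP+ cells (red), with bars at the mean of the 2 libraries. Basement membrane sums start at 175 and 143 FPKM in Ebf2-EGFP- cells and lie above the red points throughout, while protease and inhibitor sums cross over between E11.5 and E13.5.

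Elastic fibre genes went from lower to mixed. Of 11 members, 10 were lower in Ebf2-EGFP+ libraries at E11.5, 8 lower and 1 higher at E13.5, and 3 lower and 3 higher at E15.5. Summed FPKM were 87.7 and 71.2 in Ebf2-EGFP- and 24.4 and 26.9 in Ebf2-EGFP+ libraries at E11.5, and 36.2 and 26.9 against 34.1 and 33.0 at E15.5, where the populations overlap.

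Fbln1, the fibulin that binds fibronectin and basement membranes, changed most among them. It measured 32.6 and 27.1 FPKM in Ebf2-EGFP- and 6.39 and 6.9 in Ebf2-EGFP+ libraries at E11.5, a difference of -2.01 (standard error 0.20, limma adjusted p = 4.05e-06). By E15.5 it measured 9.56 and 6.8 against 15 and 13.8, a difference of 0.76 (standard error 0.20, limma adjusted p = 0.00732). It fell in 1 population and rose in the other, and the difference changed by 2.77 (standard error 0.29, limma adjusted p = 2.21e-05). The E15.5 call was lost without the second Ebf2-EGFP- library (difference 0.54, limma adjusted p = 0.062), and the call of -0.52 at E13.5 was lost without the first Ebf2-EGFP- library or either Ebf2-EGFP+ library (-0.28, -0.43 and -0.61), and under median-of-ratios scaling (-0.24).

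Eln, which encodes elastin, rose in Ebf2-EGFP+ cells from 0.431 and 0.558 FPKM at E11.5 to 1.64 and 1.74 at E13.5, then 9.14 and 9.98 at E15.5, a change of 2.82 (standard error 0.27, limma adjusted p = 3.31e-06). In Ebf2-EGFP- cells it measured 2.32 and 2.19 FPKM at E11.5, 5.38 and 4.86 at E13.5, and 6.45 and 2.45 in the last pair, which parted widely. The difference turned from -1.13 (standard error 0.27, limma adjusted p = 0.00242) to 1.06 (standard error 0.27, limma adjusted p = 0.00638). In a fit of the E15.5 libraries alone the same difference was not called (limma adjusted p = 0.0743), and it was 1.61 without the first and 0.50 without the second Ebf2-EGFP- library.

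Loxl1 and Loxl2, relatives of lysyl oxidase, an enzyme that crosslinks collagen and elastin, moved in opposite directions. Loxl2 fell from 13.1 and 9.78 to 0.807 and 0.614 FPKM in Ebf2-EGFP- cells and from 2.62 and 2.95 to 1.26 and 1.62 in Ebf2-EGFP+ cells. Its difference went from -1.70 (standard error 0.17, limma adjusted p = 3.96e-06) to 0.51 (standard error 0.17, limma adjusted p = 0.0238), and the E15.5 call was lost without the second library of either population (differences 0.43 and 0.40). Loxl1 rose in Ebf2-EGFP- cells from 3.28 and 2.99 to 13.1 and 10.1 FPKM, a change of 1.60 (standard error 0.23, limma adjusted p = 4.73e-05), and read 3.5 and 1.75 in Ebf2-EGFP+ libraries at E15.5, a difference of -1.83 (standard error 0.23, limma adjusted p = 6.26e-05).

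Adhesive and matricellular genes parted within a family. Sparc, which encodes a collagen-binding glycoprotein, was lower in Ebf2-EGFP+ libraries at all 3 stages, with 73 and 65.2 FPKM against 7.64 and 8.45 at E11.5, 35.2 and 22.1 against 3.02 and 1.41 at E13.5, then 16.3 and 10.7 against 1.3 and 1.98 at E15.5. The differences were -2.95, -3.21 and -2.44 (limma adjusted p = 3.18e-06, 5.62e-06 and 3.51e-05). Its relative Sparcl1 (hevin, known for its part in synapse formation) rose over the same days. Sparcl1 measured 3.76 and 3.7 FPKM in Ebf2-EGFP- and 1.17 and 1.56 in Ebf2-EGFP+ libraries at E11.5, 3.86 and 4.99 against 13.6 and 14.5 at E13.5, then 13 and 18.5 against 42.1 and 58.9 at E15.5.

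Sparcl1 was thus lower in Ebf2-EGFP+ libraries at E11.5, a difference of -1.003 (standard error 0.21, limma adjusted p = 9.25e-04), and higher at E15.5, a difference of 1.62 (standard error 0.21, limma adjusted p = 7.75e-05). It was the 1 of the 9 members that turned from lower to higher whose calls at both stages held in every alternative fit. Its rise of 4.43 (standard error 0.21, limma adjusted p = 3.57e-08) within Ebf2-EGFP+ cells was the largest of any member. Between the extremes, Sparcl1 stood at 0.0515 times Sparc in an Ebf2-EGFP- library at E11.5 and at 32.4 times in an Ebf2-EGFP+ library at E15.5.

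Fn1, which encodes fibronectin, fell within both populations, with changes of -2.80 in Ebf2-EGFP+ and -1.65 in Ebf2-EGFP- cells (limma adjusted p = 1.07e-06 and 3.78e-05). It measured 63.5 and 50.9 FPKM in Ebf2-EGFP- and 21.7 and 23.5 in Ebf2-EGFP+ libraries at E11.5, then 14.4 and 21.1 against 1.97 and 2.86 at E15.5. Unlike most members its difference grew, from -1.29 to -2.45, a change of -1.15 (standard error 0.33, limma adjusted p = 0.0102). Thbs1, which encodes thrombospondin 1, was lower at all 3 stages, with 6.74 and 7.76 against 0.463 and 0.587 FPKM at E15.5, a difference of -2.43 (standard error 0.19, limma adjusted p = 2.44e-06).

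Of a list of 35 other matrix glycoproteins 18 were in the table, with 5 higher and 11 lower in Ebf2-EGFP+ libraries at E11.5, 4 and 8 at E13.5, then 6 and 9 at E15.5. Cyr61, a matricellular protein of the CCN family, measured 43.4 and 63.1 FPKM in Ebf2-EGFP- and 3.23 and 3.2 in Ebf2-EGFP+ libraries at E13.5, a difference of -3.66 (standard error 0.29, limma adjusted p = 3.55e-06). Mfap4, a microfibril-associated glycoprotein, was the reverse at E11.5, with 13.6 and 18.3 against 96.5 and 110.2 FPKM and a difference of 2.63 (standard error 0.35, limma adjusted p = 2.83e-05). By E15.5 Mfap4 read 64.6 and 45.6 FPKM in Ebf2-EGFP- and 13.8 and 4.93 in Ebf2-EGFP+ cells.

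**Figure D3:**
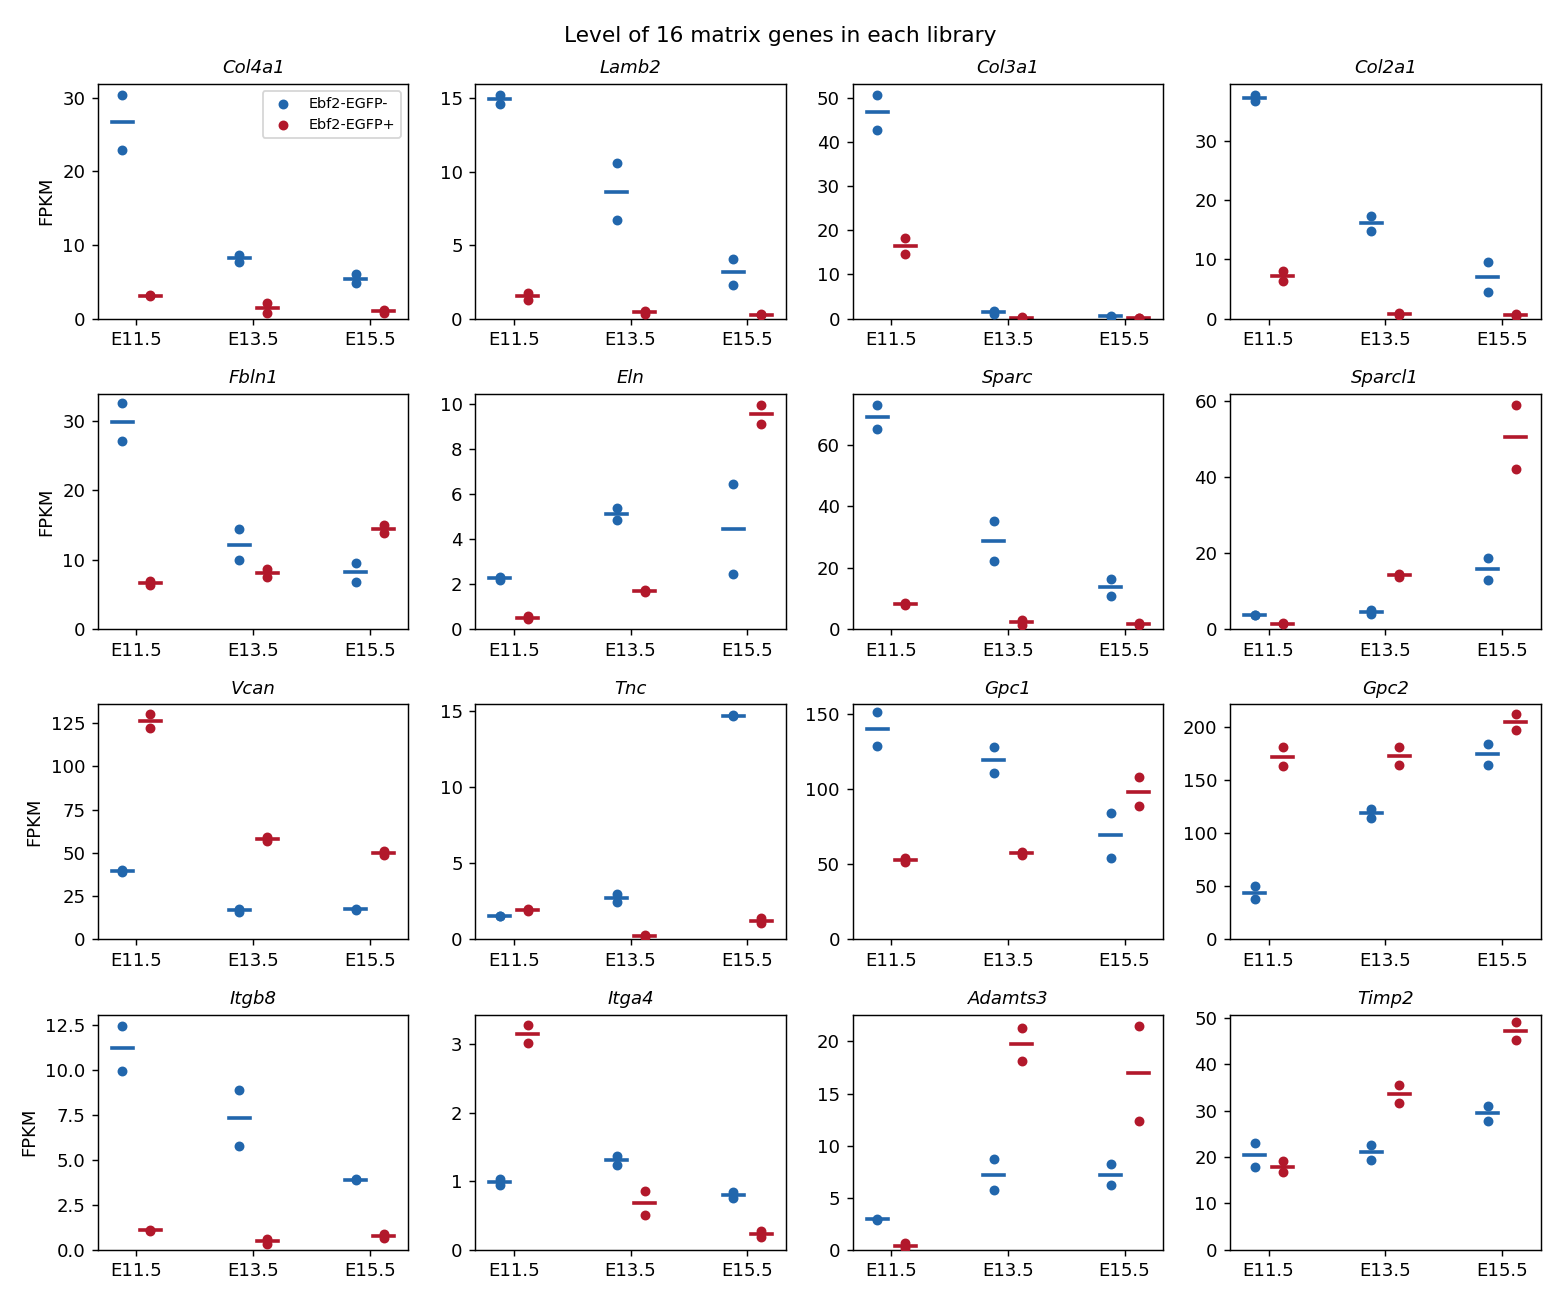
FPKM of 16 members in each library on E11.5, E13.5 or E15.5, in Ebf2-EGFP- (blue) and Ebf2-EGFP+ cells (red), on linear axes from 0, with bars at the mean of 2 libraries. Red and blue points swap order between E11.5 and E15.5 for Fbln1, Eln, Sparcl1, Gpc1, Itga4 and Adamts3, whereas for Vcan red lies above blue at all 3 stages.

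The interstitial matrix of the brain was the group whose summed level was higher in Ebf2-EGFP+ libraries at all 3 stages. Its 6 genes summed to 214 and 209 FPKM in Ebf2-EGFP+ and 74.0 and 74.6 in Ebf2-EGFP- libraries at E11.5, and to 184 and 161 against 159 and 151 at E15.5. In these E15.5 sums Vcan alone held 48.7 and 51.1 FPKM against 17.1 and 17.4, a wider gap than that of the sums. By calls it was split, with 2 higher and 1 lower at E11.5 and 2 higher and 2 lower at both later stages.

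Vcan, which encodes the lectican versican, was higher in Ebf2-EGFP+ cells throughout. It lies on chromosome 13 from 89655309 to 89743027 (mm10) and measured 130.2 and 122 FPKM against 38.8 and 40.1 at E11.5, 56.8 and 59.4 against 17.6 and 15.9 at E13.5, then 48.7 and 51.1 against 17.1 and 17.4 at E15.5. Its level fell in both populations while the difference kept its size at 1.65, 1.74 and 1.48 (limma adjusted p = 6.81e-07, 2.76e-06 and 3.87e-06), and from E11.5 to E15.5 it changed by -0.17 (standard error 0.18, limma adjusted p = 0.4). Ncan, which encodes neurocan, began higher in Ebf2-EGFP+ cells with 80.3 and 83.4 FPKM against 31.6 and 31, a difference of 1.36 (standard error 0.17, limma adjusted p = 2.36e-05). It then rose in Ebf2-EGFP- cells to 111 and 107 FPKM, so that at E15.5, against 122 and 91.9, the difference was -0.04 (standard error 0.17, limma adjusted p = 0.846).

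Tenascins, large glycoproteins made by glia and neurons, went apart. Tnc rose in Ebf2-EGFP- cells from 1.56 and 1.5 FPKM at E11.5 to 14.7 and 14.6 at E15.5, a change of 2.63 (standard error 0.15, limma adjusted p = 6.65e-08). In Ebf2-EGFP+ cells it measured 1.88 and 1.96 FPKM at E11.5, then 0.255 and 0.139 at E13.5, and stood at 1.04 and 1.37 in the last pair of libraries, and the difference at E15.5, -2.83 (standard error 0.15, limma adjusted p = 3.66e-07), was the largest of any member at that stage. Tnr, the tenascin of neurons and oligodendrocytes, rose in both populations and more in Ebf2-EGFP+ cells, to 10.6 and 15.2 FPKM against 3.52 and 6.14 at E15.5, a difference of 1.27 (standard error 0.25, limma adjusted p = 0.0013). That difference changed by 0.81 (standard error 0.36, limma adjusted p = 0.0682) from E11.5, which was not called, and with the replicate number as a block it was (limma adjusted p = 0.00447). Bcan, which encodes brevican, rose in Ebf2-EGFP- cells from 0.206 and 0.498 to 12.8 and 6.42 FPKM and reached 1.8 and 1.4 in Ebf2-EGFP+ cells, a difference of -1.96 (standard error 0.25, limma adjusted p = 6.74e-05).

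Matrix receptors other than integrins, and hyaluronan genes, followed no single direction. Of 15 such genes 10 were in the table, with 2 higher and 6 lower in Ebf2-EGFP+ libraries at E11.5 and 2 and 2 at each later stage. Ptprz1, a receptor phosphatase that binds tenascins, measured 62.4 and 51.5 FPKM in Ebf2-EGFP- and 7.17 and 8.09 in Ebf2-EGFP+ libraries at E11.5, a difference of -2.74 (standard error 0.19, limma adjusted p = 3.82e-07), then 51.5 and 66.8 against 51.7 and 51.7 at E15.5. Hmmr, a hyaluronan-binding protein of the mitotic spindle, measured 12.4 and 8.68 against 2.93 and 1.51 FPKM at E13.5, a difference of -1.86 (standard error 0.25, limma adjusted p = 6.49e-05). Summed cell cycle markers (7 genes) stood beside it at 453 to 737 FPKM in Ebf2-EGFP- and 95.4 to 141 in Ebf2-EGFP+ libraries at E13.5, and their part in that difference was not tested.

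Heparan sulfate proteoglycans of the cell surface were the most abundant members, and the family split between its genes. The 9 genes summed to 312 to 328 FPKM in Ebf2-EGFP+ and 327 to 373 in Ebf2-EGFP- libraries at E11.5, where 7 were lower and 2 higher. At E15.5 the sums were 448 to 452 against 366 to 380, with 3 lower and 1 higher.

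Gpc1 and Gpc2 encode glypicans, which are held to the membrane by a lipid anchor. Gpc2 was the most abundant of the group in Ebf2-EGFP+ libraries at E11.5, with 164 and 181 FPKM against 37.9 and 50.2 in Ebf2-EGFP- cells, a difference of 1.95 (standard error 0.16, limma adjusted p = 1.14e-06). It rose in Ebf2-EGFP- cells to 164 and 184 FPKM, and at E15.5, against 213 and 197, the difference was 0.23 (standard error 0.16, limma adjusted p = 0.226), which median-of-ratios scaling raised to 0.44 and past the threshold (limma adjusted p = 0.049). The call of 0.54 at E13.5 was lost without the first library of either population (differences 0.49 and 0.47).

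Gpc1 ran opposite to Gpc2. It measured 151 and 128 FPKM in Ebf2-EGFP- and 51.7 and 54.3 in Ebf2-EGFP+ libraries at E11.5, a difference of -1.38 (standard error 0.20, limma adjusted p = 5.16e-05), then 84 and 54.2 against 88.6 and 108 at E15.5. Its E15.5 difference of 0.53 (standard error 0.20, limma adjusted p = 0.0383) was 0.84 without the first Ebf2-EGFP- library. It was not called without the second Ebf2-EGFP- library (0.21, limma adjusted p = 0.361) or the second Ebf2-EGFP+ library (0.39, limma adjusted p = 0.2), nor in a fit of that stage alone (limma adjusted p = 0.133), nor without any 1 Ebf2-EGFP+ library of an earlier stage (limma adjusted p from 0.0515 to 0.0549). Gpc2 stood at 0.251 and 0.392 times Gpc1 in the Ebf2-EGFP- libraries at E11.5 and at 3.16 and 3.33 times in the Ebf2-EGFP+ libraries, and by E15.5 at 1.95 and 3.4 against 2.4 and 1.84 times.

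Gpc3, a glypican of growing tissues, fell in Ebf2-EGFP+ cells from 9.98 and 10.7 to 0.409 and 0.588 FPKM, a change of -2.92 (standard error 0.18, limma adjusted p = 1.48e-07), and was lower than in Ebf2-EGFP- cells at all 3 stages. Sdc3, the main syndecan of neurons, was higher in Ebf2-EGFP+ libraries at E11.5 with 57.2 and 53.6 FPKM against 17.4 and 13.8, a difference of 1.77 (standard error 0.18, limma adjusted p = 4.56e-06). It rose in both populations, to 109 and 113 FPKM in Ebf2-EGFP+ and 82 and 93.4 in Ebf2-EGFP- libraries at E15.5, a difference of 0.34 (standard error 0.18, limma adjusted p = 0.128), which was called with the replicate number as a block (limma adjusted p = 0.0313).

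Of 22 enzymes that make and edit heparan sulfate 10 were in the table, with 4 higher and 4 lower in Ebf2-EGFP+ libraries at E11.5, 4 and 1 at E13.5, then 3 and 4 at E15.5. Sulf1, a sulfatase that trims heparan sulfate outside the cell, measured 32.1 and 27.1 FPKM in Ebf2-EGFP- and 3.11 and 2.98 in Ebf2-EGFP+ libraries at E11.5, a difference of -2.91 (standard error 0.27, limma adjusted p = 2.30e-06), and under 1.2 in every later library. Hs3st2, a heparan sulfate 3-O-sulfotransferase, measured 0.11 and 0.103 against 3.75 and 3.05 FPKM at E13.5, a difference of 1.99 (standard error 0.17, limma adjusted p = 4.32e-06).

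Matrix proteases and their inhibitors were the group in which calls went over to the Ebf2-EGFP+ side. Of 12 members, 7 were lower and 1 higher at E11.5, 2 lower and 5 higher at E13.5, and 0 lower and 5 higher at E15.5. By limma 0 were lower there at an unadjusted p under 0.05 either, and 1 was lower with the replicate number as a block. Summed FPKM were 46.0 and 47.2 in Ebf2-EGFP+ and 63.7 and 65.7 in Ebf2-EGFP- libraries at E11.5, and 155 and 143 against 103 and 104 at E15.5, so the order of the populations turned without overlap.

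Adamts3, a protease that trims procollagens and, in the brain, cleaves reelin, showed it most. It measured 2.88 and 2.93 FPKM in Ebf2-EGFP- and 0.184 and 0.614 in Ebf2-EGFP+ libraries at E11.5, 5.72 and 8.68 against 18.2 and 21.3 at E13.5, then 8.2 and 6.2 against 21.5 and 12.4 at E15.5. The difference went from -1.50 (standard error 0.27, limma adjusted p = 2.87e-04) to 1.09 (standard error 0.27, limma adjusted p = 0.0049), and the rise within Ebf2-EGFP+ cells was 3.65 (standard error 0.27, limma adjusted p = 4.92e-07). Without the first Ebf2-EGFP+ library the E15.5 difference was 0.72 (limma adjusted p = 0.0579).

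Adamts18, of the same family, went from 0.229 and 0.392 FPKM in Ebf2-EGFP+ libraries at E11.5 to 9.08 and 7.05 at E15.5, and in Ebf2-EGFP- cells from 1.78 and 2.13 to 4.97 and 4.5. Its E15.5 difference of 0.65 (standard error 0.18, limma adjusted p = 0.00849) was not called without the first Ebf2-EGFP+ library (0.49, limma adjusted p = 0.0741) or in a fit of that stage alone (limma adjusted p = 0.0581). Adamts17 was higher at E13.5, with 8.74 and 13.6 FPKM against 1.37 and 3.48, a difference of 1.87 (standard error 0.35, limma adjusted p = 5.27e-04). By E15.5 its Ebf2-EGFP+ libraries read 10.7 and 5.3 against 4.94 and 3.1, a difference of 0.80 (standard error 0.35, limma adjusted p = 0.0674) that was called with the replicate number as a block (limma adjusted p = 0.00134). It rested on single libraries, being 0.35 without the first Ebf2-EGFP+ library (limma adjusted p = 0.458), 1.25 without the second (limma adjusted p = 0.0187) and 0.53 without the second Ebf2-EGFP- library (limma adjusted p = 0.282).

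Among the metalloproteinases, Mmp24, a membrane-bound enzyme of neurons, was higher at all 3 stages, with 12.52 and 11.49 FPKM against 2.62 and 2.6 at E11.5, then 41.4 and 42.3 against 24.7 and 30.4 at E15.5. Its difference shrank from 1.85 (standard error 0.19, limma adjusted p = 4.02e-06) to 0.59 (standard error 0.19, limma adjusted p = 0.0171), and the E15.5 call was lost without the first Ebf2-EGFP- library (limma adjusted p = 0.124) or either Ebf2-EGFP+ library (limma adjusted p = 0.0564 and 0.0654). Mmp17, also bound to the membrane, was lower at E11.5 with 1.91 and 1.95 FPKM against 8.06 and 7, a difference of -1.54 (standard error 0.17, limma adjusted p = 8.06e-06), and reached 19.4 and 18.3 against 21.5 and 25.3 at E15.5, a difference of -0.29 (standard error 0.17, limma adjusted p = 0.158). Timp2, an inhibitor of metalloproteinases, was not called at E11.5, with 19.1 and 16.8 FPKM against 22.9 and 17.8 (difference -0.17 (standard error 0.16, limma adjusted p = 0.348)). It rose to 45.2 and 49 FPKM in Ebf2-EGFP+ and 31 and 27.8 in Ebf2-EGFP- cells, a difference of 0.66 (standard error 0.16, limma adjusted p = 0.00421). Mmp2, which digests collagen IV, falls outside the rule for named genes and was chosen after its values were seen, as the last of the 5 higher at E15.5. It measured 2.52 and 3.71 FPKM against 2.11 and 1.41, a difference of 0.57 (standard error 0.19, limma adjusted p = 0.023) that was not called without the second library of either population (differences 0.39 and 0.36).

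The test of the change in the population difference from E11.5 to E15.5 called 54 members (64.3%) as moving toward Ebf2-EGFP+ cells and 11 (13.1%) toward Ebf2-EGFP- cells, where the shares of all listed genes were 32% and 27.7%. The median change was 0.82 over the members and 0.17 over all genes. Of the 54, 48 fell within Ebf2-EGFP- cells, 11 rose within Ebf2-EGFP+ cells and 30 fell within them. The matching shares of all listed genes were not computed. In these falls too, fewer cells of a type and less RNA per cell cannot be told apart. With a pseudocount of 0.1 in place of 1, which gives weak genes more weight, 32 members moved toward Ebf2-EGFP+ cells. Among the 54, 31 were called in every alternative that included them, as a filter at 1 FPKM left out weak members. By role, 11 of 14 basement membrane genes, 9 of 11 elastic fibre genes, 9 of 12 proteases and inhibitors, 6 of 8 fibrillar collagens and 4 of 7 integrins moved that way. With the pseudocount of 0.1 these counts were 3, 6, 8, 3 and 0, so most of the calls among basement membrane genes and all of those among integrins rested on the pseudocount of 1.

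**Figure D4:**
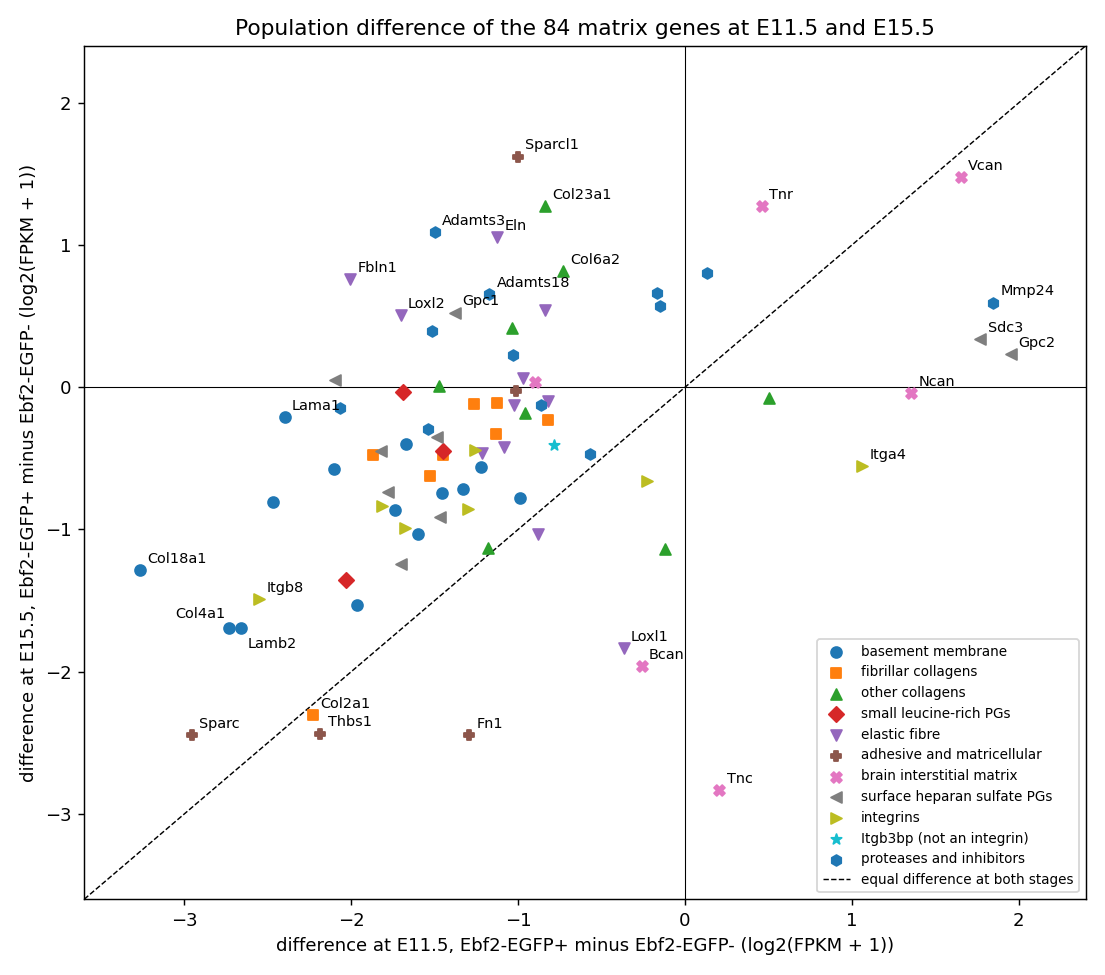
Each point is 1 of the 84 members, with its difference between the populations at E11.5 on the horizontal and at E15.5 on the vertical axis, both in log2(FPKM + 1), with shape and colour by role. Most points lie above the dashed line of equal differences, 9 called members sit in the upper left of the plot, and Tnc lies lowest with a change of -3.04.

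The 5 largest changes toward Ebf2-EGFP+ cells were those of Fbln1 (2.77), Sparcl1 (2.62), Adamts3 (2.59), Loxl2 (2.21) and Lama1 (2.19), with limma adjusted p from 2.21e-05 to 2.14e-04. Toward Ebf2-EGFP- cells they were those of Tnc (-3.04), Gpc2 (-1.72), Bcan (-1.70), Itga4 (-1.62) and Loxl1 (-1.46), with limma adjusted p from 2.12e-06 to 0.00283. The 9 members lower at E11.5 and higher at E15.5 were Adamts18, Adamts3, Col23a1, Col6a2, Eln, Fbln1, Gpc1, Loxl2 and Sparcl1. The change of the difference was called for 9 of 9. Opposite calls at the 2 stages in the same fit all but fix that outcome, so it is not separate evidence.

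Within Ebf2-EGFP+ cells 50 members fell from E11.5 to E15.5 and 16 rose, where 42.1% of all listed genes fell and 33.3% rose. Within Ebf2-EGFP- cells 67 fell and 15 rose, against 47.6% and 37.7% of all genes. The median change over the members was -0.51 and -1.31, and over all genes -0.18 and -0.32. Marker sums of the Ebf2-EGFP- libraries also changed between these stages. Ganglionic eminence markers (10 genes) summed to 215 to 275 FPKM at E11.5 and 80.5 to 94.6 at E15.5, although Lhx6 among them rose. The 8 meningeal markers without Crabp2 summed to 27.4 to 30.6 and 1.91 to 2.96, and cortical plate markers to 65.5 to 70.1 and 619 to 720. The part of this in the falls was not tested. In all 47 members fell in both populations and 11 rose in both, 5 fell in Ebf2-EGFP- and rose in Ebf2-EGFP+ cells, and 1 did the reverse. The shares of all listed genes for these joint counts were not computed, so the counts cannot set the members apart. The comparisons between stages share libraries with those between the populations and are not separate evidence. In Ebf2-EGFP+ cells the steepest falls were those of Col3a1 (-4.02), Col1a2 (-3.48), Gpc3 (-2.92), Fn1 (-2.80) and Col1a1 (-2.58). The steepest rises were those of Sparcl1 (4.43), Adamts3 (3.65), Eln (2.82), Tnr (2.81) and Adamts18 (2.78), and all 10 had a limma adjusted p of at most 5.22e-06.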

How the data were processed

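RNA of sorted Ebf2-EGFP+ and Ebf2-EGFP- cortical cells was sequenced, with 2 libraries per population and stage. The authors aligned reads to mm10 with TopHat2 2.0.8b and computed FPKM with Cufflinks 2.2.0, and the deposited FPKM of 4859 coding genes that they reported as differing were used as they stood. Their fold changes and p-values, and the table of long noncoding RNAs, were not used. Low values did not lie on a grid of whole reads, so the depth behind each value is unknown and gave no counting interval.

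All 12 libraries were fitted as 6 groups with limma 3.58.1 in R 4.3.3 (empirical Bayes with a mean trend) on log2(FPKM + 1), with no filter, and p-values were adjusted by the Benjamini-Hochberg method over all 4859 genes within each of 6 comparisons. The comparisons set the populations against each other at each stage, asked whether their difference changed between E11.5 and E15.5, and set these stages against each other within each population. Libraries of a group are separate by their labels, and p-values measure the spread between them.

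Members, lists and roles were chosen with earlier results of these data known. Named genes were the 3 members of each role with the highest mean FPKM, the 5 with the largest called and non-overlapping difference in each direction at each stage, the 5 with the largest called change in each direction of that difference and within Ebf2-EGFP+ cells, and any pair with start sites head to head within 1000 bases. Partner lists were given by counts, with values for the 2 genes with the largest called difference. Alternatives were a pseudocount of 0.1, a filter at 1 FPKM, median-of-ratios scaling, no trend, the compared groups only, each library left out, and the replicate number as a block. Libraries with the same number deviated from their group means together, with correlations of 0.431, 0.534 and 0.431 between the populations at the 3 stages. On this evidence, and not from a label, the numbers were taken as pairs in the block alternative. The main fit left the pairs out. Promoter windows came from RefSeq (GRCm38.p6) and matched 54 of 84 members.

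Lists of cell markers were checked as well. Beside those given with the results, 7 cell cycle genes were lower in Ebf2-EGFP+ cells at every stage (7 of 7), ganglionic eminence genes in 10, 9 and 8 of 10, and cortical plate genes were higher in 4, 6 and 5 of 8 and lower in 0, 1 and 2. Both microglial genes in the table summed to 2.1 to 3.01 FPKM in Ebf2-EGFP- and 1.13 to 1.35 in Ebf2-EGFP+ libraries at E11.5, and to 0.972 to 1.29 against 3 to 3.21 at E15.5. The 2 genes went opposite ways, Aif1 higher and Cd68 lower in both Ebf2-EGFP+ libraries at each of these stages. At E15.5 Aif1 read 0.626 and 0.773 against 2.92 and 2.87 FPKM, and Cd68 0.347 and 0.518 against 0.0812 and 0.332.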

Additional observations from a re-analysis of the deposited data

Results flagged for a closer look

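The population difference of many members was not the same at E11.5 and E15.5 by limma's test of the change itself. It moved toward Ebf2-EGFP+ cells for 54 members and toward Ebf2-EGFP- cells for 11 (adjusted p under 0.05 over all genes), with 2 libraries per group. On the log2(FPKM + 1) scale, changes toward Ebf2-EGFP+ cells were 2.77 for Fbln1, 2.62 for Sparcl1, 2.59 for Adamts3, 2.21 for Loxl2, 2.19 for Lama1 and 2.18 for Eln. They were 2.11 for Col23a1, 1.90 for Gpc1, 1.83 for Adamts18 and 1.55 for Col6a2. Changes toward Ebf2-EGFP- cells were -3.04 for Tnc, -1.72 for Gpc2, -1.70 for Bcan, -1.62 for Itga4 and -1.46 for Loxl1.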

How the results depend on the processing

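Of the counts of members called, 1 moved by over 1.5 times under an alternative: with a pseudocount of 0.1, 32 members rather than 54 had a population difference that rose from E11.5 to E15.5. With each library left out in turn that count lay between 44 and 55. Among 135 differences of named members, 135 kept their direction and call without the mean trend, 129 with a pseudocount of 0.1, 126 in fits of the compared groups alone and 117 under median-of-ratios scaling. The differences that changed sign were not called as reported. Under that scaling they were Col1a1 (0.0022), Col9a2 (0.019) and Ncan (0.1657) at E15.5, Itga6 (0.0448) and Lum (0.0305) at E13.5, and Itgb1 (0.029) and Timp2 (0.0822) at E11.5. With a pseudocount of 0.1 the Lum difference at E13.5 was 0.0123. Without 1 library the E15.5 differences ran from -0.6073 to 0.383 for Col1a1, -0.2863 to 0.1336 for Col9a2, -0.2436 to 0.1582 for Ncan and -0.085 to 0.0238 for Lum. Those at E13.5 ran from -0.146 to 0.1181 for Lum, -0.1214 to 0.4675 for Dcn and -0.0567 to 0.23 for Loxl1, and at E11.5 from -0.3426 to 0.0102 for Timp2. The cause was not tested. With the replicate number as a block, 8 members were higher and 68 lower at E11.5, 14 and 52 at E13.5, then 19 and 43 at E15.5, and the population difference rose for 59 and fell for 12. The block ended no call of a named member and added 9. Of members called lower at E11.5, 62 of 67 were called in every alternative that included them. At E15.5 this held for 5 of 14 called higher and 32 of 36 called lower. The filter at 1 FPKM left out weak members, and under it 50 were lower at E11.5 and 29 at E15.5. The precision of each value is limited by 2 libraries per group and an unknown depth.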
